A study of Mus musculus with 6 samples.

Results

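The genes described here are 6 genes of the Notch pathway (Notch1, Dll1, Dll3, Hes1, Hes5 and Hes6) and the 4 Id genes (Id1, Id2, Id3 and Id4), 10 of the 19938 genes that could be measured in this experiment. Each was found by its symbol, on a probe annotated with that 1 symbol and no other, and each of the 10 had a single such probe. Expression was measured on Affymetrix mouse gene arrays in N2A cells, an established mouse neuroblastoma line. Cells were transiently transfected with an shRNA against Pbcas4, the mouse unitary pseudogene of BCAS4 (3 arrays), or with a scramble control construct (3 arrays). RNA was collected 72 h after transfection, and all results are for this 1 line at this 1 time. The study asks what a lower amount of Pbcas4 does to other transcripts, and each comparison below asks it of 1 of these genes.

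Notch is a receptor through which neighbouring cells signal to each other. Ligands of the Delta and Jagged families on 1 cell bind it on the next, the receptor is cleaved, and its freed intracellular part joins the DNA-binding protein RBPJ to switch on genes such as Hes1 and Hes5, whose products repress the proneural genes that drive neurons to differentiate. Id proteins are helix-loop-helix factors without a DNA-binding region. They hold E proteins in pairs that cannot bind DNA, they keep progenitors dividing, and their genes are well-known targets of bone morphogenetic protein (BMP) signalling through SMAD factors. Neuroblastoma arises from sympathoadrenal precursors of the neural crest, and in neural precursors both families are known to restrain differentiation.

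The deposited values are on a log2 scale, so that a difference of 1 is a doubling. Array medians were between 7.75 and 7.86, and any pair of arrays correlated over all probes at 0.984 to 0.995. Scramble replicate 1 stood apart from its group: it correlated at 0.990 to 0.993 with the shRNA arrays but at 0.987 and 0.988 with the other scramble arrays, so differences between constructs are also given without it. The array numbered 1 of the shRNA was uneven too. It correlated at 0.989 with shRNA replicate 2, 0.993 with shRNA replicate 3 and 0.992 with scramble replicate 1. The annotation names no probe for Pbcas4, and its level was not analysed here. As a check of the cell type, 14 measured markers of sympathoadrenal neuroblastoma averaged 11.09 to 11.31 in the shRNA arrays and 11.57 to 11.80 in the scramble arrays, with a median difference of -0.38. Lists of fibroblast, glial, endothelial, macrophage and epithelial markers averaged 6.62 to 8.48 in every array, and their mean differences between constructs were 0.04 or less in size.

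None of the 10 genes passed the test between constructs. With limma, an adjusted p under 0.05 and a log2 difference over 0.5 called 0 of the 10 and 0% of all 19938 genes. At an unadjusted p under 0.05, 0 of the 10 were higher with the shRNA, where 6.22% of all genes were, and 0 were lower, where 5.46% of all genes were. In none of the 10 did all shRNA arrays lie above all scramble arrays (9.13% of all genes) or all below them (7.63% of all genes). The 2 families differed in their values all the same. The 6 Notch pathway genes had differences between constructs of 0.11 or less in size, and their SDs over the 6 arrays, 0.10 to 0.17, lay around the median of all genes, 0.15. Among them, Hes1 and Dll3 were dim, below the median of all probe means, 7.83, in every array. The 4 Id genes all had a higher mean with the shRNA, by 0.19 to 0.94, and 3 of them varied more over the 6 arrays than nearly every other gene measured.

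**Figure D1:**
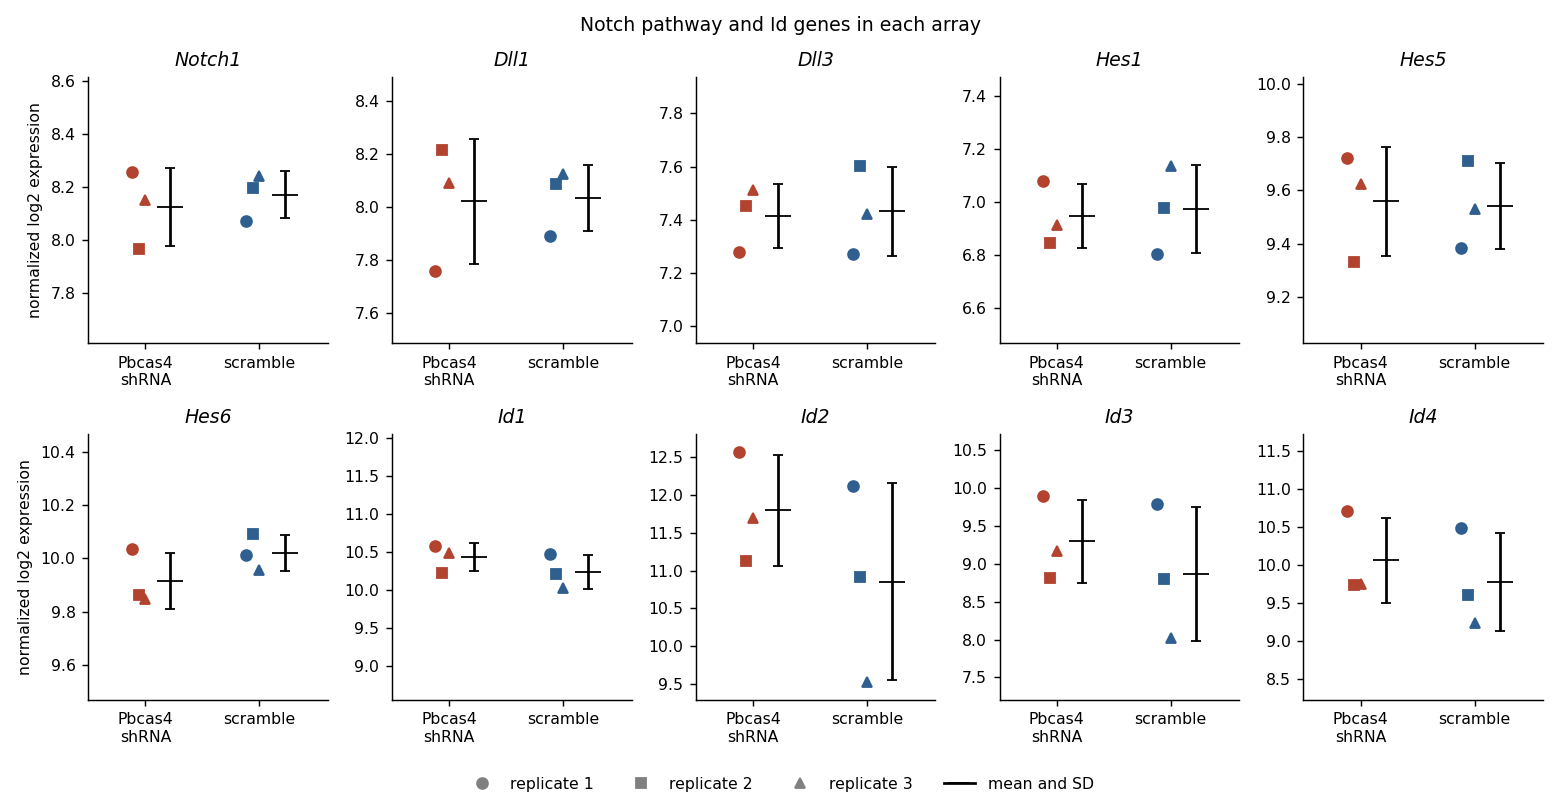
Normalized log2 expression of the 10 genes in each array, Pbcas4 shRNA left of scramble, with the replicate number as the marker shape and the mean and SD of 3 arrays as bars. The axis spans 1 log2 unit for each Notch pathway gene and 3.5 units for each Id gene, and in every panel the arrays of the constructs overlap.

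Id2 had the widest spread of the 10. It is the family member best known from human neuroblastoma, where it was described as a target of MYCN. Its level was 12.57, 11.12 and 11.69 in shRNA replicates 1, 2 and 3, against 12.12, 10.92 and 9.53 in scramble replicates 1, 2 and 3. Both arrays numbered 1 were high, scramble replicate 3 was far below the other 5, and scramble replicate 1 lay above shRNA replicates 2 and 3, so the constructs overlapped. From the lowest to the highest array Id2 spanned 3.04 on the log2 scale, a ratio of 8.22 on the linear scale, and its SD over the 6 arrays, 1.07, was exceeded by only 11 of the 19938 genes (median of all genes 0.15). Mean levels were 11.79 ± 0.73 with the shRNA and 10.86 ± 1.30 with the scramble construct (SD, n = 3 each), a log2 difference of 0.94 (SE 0.67, 95% interval -0.67 to 2.54, limma adjusted p = 0.728, exact permutation p = 0.4). That difference, 1.92-fold, was smaller than the SD of the scramble arrays. Scramble replicate 3 carried much of it: without that array the difference was 0.27, and without scramble replicate 1 it was 1.57 (limma unadjusted p = 0.0305, adjusted p = 0.226).

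Id3, the Id gene often induced together with Id1 by BMP, followed the same order of arrays. Its level was 9.89, 8.81 and 9.17 in shRNA replicates 1, 2 and 3, against 9.79, 8.79 and 8.02 in scramble replicates 1, 2 and 3. Again the arrays numbered 1 were the highest of each construct, and scramble replicate 3 was the lowest of all 6. The mean with the shRNA was higher by 0.43 (SE 0.47, 95% interval -0.71 to 1.56, limma adjusted p = 0.867, exact permutation p = 0.4). Its SD over the 6 arrays was 0.70, exceeded by 170 genes. The difference was 0.002 without scramble replicate 3, 0.12 without shRNA replicate 1 and 0.89 without scramble replicate 1, so that its size depended on single arrays of both constructs.

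Id4, known for keeping neural progenitors dividing, had levels of 10.71, 9.73 and 9.74 in shRNA replicates 1, 2 and 3, against 10.49, 9.61 and 9.24 in scramble replicates 1, 2 and 3. Here shRNA replicates 2 and 3 were almost equal, and both lay below scramble replicate 1 and above the other scramble arrays. The difference between means was 0.29 (SE 0.39, 95% interval -0.65 to 1.22, limma adjusted p = 0.907, exact permutation p = 0.5), and 444 genes had a larger SD than its 0.56. It was -0.04 without shRNA replicate 1 and 0.64 without scramble replicate 1.

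Id1, a classical immediate target of BMP signalling, was the steadiest of the family. Its level was 10.57, 10.22 and 10.49 in shRNA replicates 1, 2 and 3, against 10.47, 10.21 and 10.03 in scramble replicates 1, 2 and 3. The values lay within 0.55 of each other, and shRNA replicate 2 lay between scramble replicates 1 and 2. The mean was higher with the shRNA by 0.19 (SE 0.15, 95% interval -0.17 to 0.55, limma adjusted p = 0.763, exact permutation p = 0.2), and 25.6% of all genes had a larger SD than its 0.21. Leaving out 1 array at a time gave 0.09 to 0.31, the lowest without scramble replicate 3 and the highest without scramble replicate 1.

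The Id genes shared a pattern over the arrays within each construct. Id2, Id3 and Id4 put the 6 arrays in an identical order, highest in shRNA replicate 1 and then in scramble replicate 1, shRNA replicate 3, shRNA replicate 2, scramble replicate 2 and scramble replicate 3. Id1 differed from that order by 1 exchange, of scramble replicate 1 and shRNA replicate 3. The array numbered 1 exceeded the mean of the other two by 1.16 with the shRNA and 1.90 with the scramble construct for Id2, by 0.90 and 1.38 for Id3, and by 0.97 and 1.07 for Id4, gaps that were each larger than the gene's difference between constructs. For Id1 these gaps were 0.22 with the shRNA and 0.36 with the scramble construct. Over the 6 arrays, which share 1 normalization and 2 constructs, the pairs of Id genes had Pearson's r of 0.860 (Id1 and Id4) to 0.982 (Id2 and Id3). With each construct's mean taken off, r was 0.866 to 0.994. These are descriptions over 6 arrays, and 209 genes in all correlated with Id2 at over 0.95. The genes most like Id2 by this measure were Ran, a small GTPase of nuclear transport (r = 0.999), Slc25a5, a mitochondrial ADP/ATP carrier (r = 0.996), and Actn3, an actin-binding alpha-actinin (r = 0.993). Their own values varied much less: Ran had levels of 12.73, 12.56 and 12.62 in the shRNA arrays, against 12.66, 12.54 and 12.38 in the scramble arrays.

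**Figure D2:**
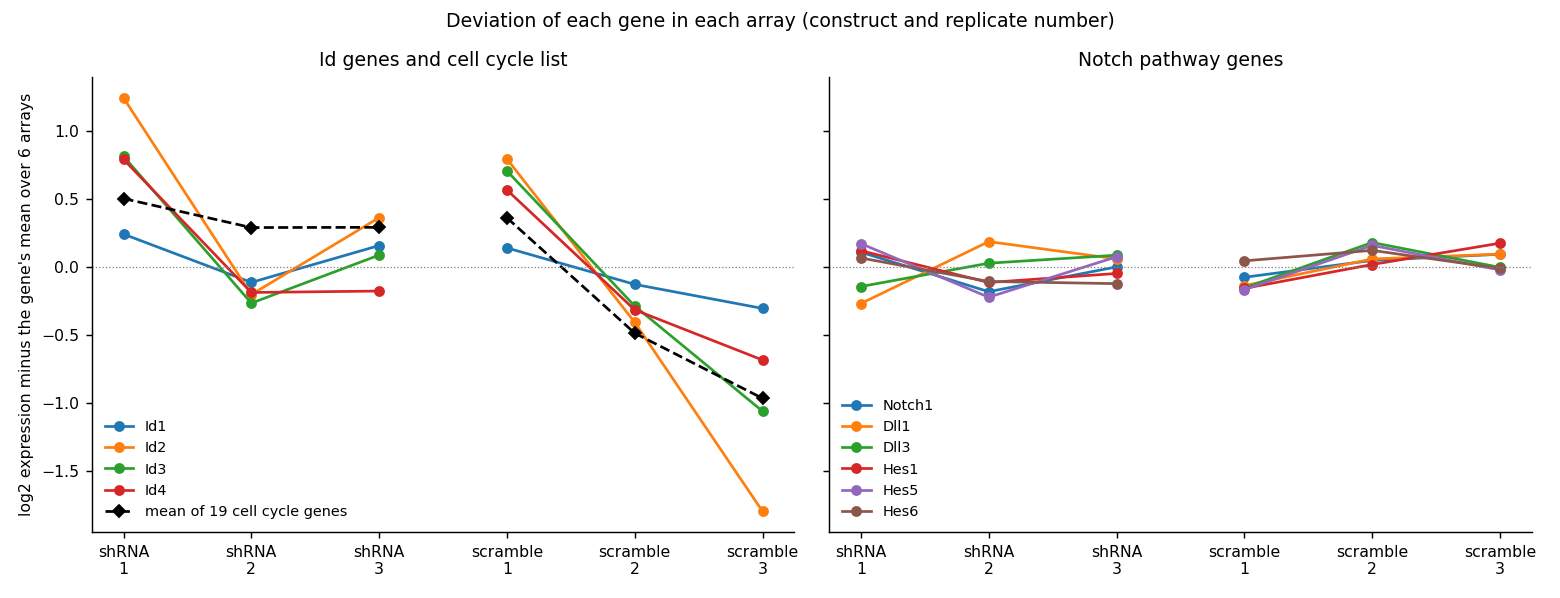
Log2 expression of each gene minus its own mean over the 6 arrays, with the 4 Id genes and the mean of 19 cell cycle genes on the left and the 6 Notch pathway genes on the right, on 1 shared axis. The shRNA arrays stand left of the scramble arrays in each panel; the Id genes peak in replicate 1 of both constructs and are lowest in scramble replicate 3, while every Notch pathway gene stays within 0.27 of its mean.

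Since the arrays of the constructs share replicate numbers, the Id genes were also compared number by number. The shRNA array was the higher one in 3 of 3 pairs for each of the 4 Id genes. The share of all genes with this property was not counted. Since the Id genes varied together over the arrays (r of 0.860 to 0.982), they are not 4 separate observations. For Id2 the differences were 0.45, 0.20 and 2.16 at numbers 1, 2 and 3, for Id3 they were 0.11, 0.02 and 1.15, for Id4 0.22, 0.13 and 0.51, and for Id1 0.10, 0.01 and 0.46. Number 3 gave the largest value for each gene, and number 2 the smallest. With the number as a block in limma, the mean differences stayed as they were, the SE was 0.39 for Id2, 0.24 for Id3, 0.12 for Id4 and 0.12 for Id1, and no gene passed (adjusted p of 0.418 for Id2, 0.570 for Id3, 0.401 for Id4 and 0.636 for Id1). The 95% intervals in this comparison reached from -0.06 to 1.93 for Id2 and from -0.01 to 0.58 for Id4. Among the 6 Notch pathway genes the direction turned with the number: at number 1, 5 were higher with the shRNA (all but Dll1, by 0.01 to 0.34), at number 2, 5 were lower (all but Dll1, with differences of -0.38 to -0.13), and at number 3, 2 were higher and 4 lower.

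**Figure D3:**
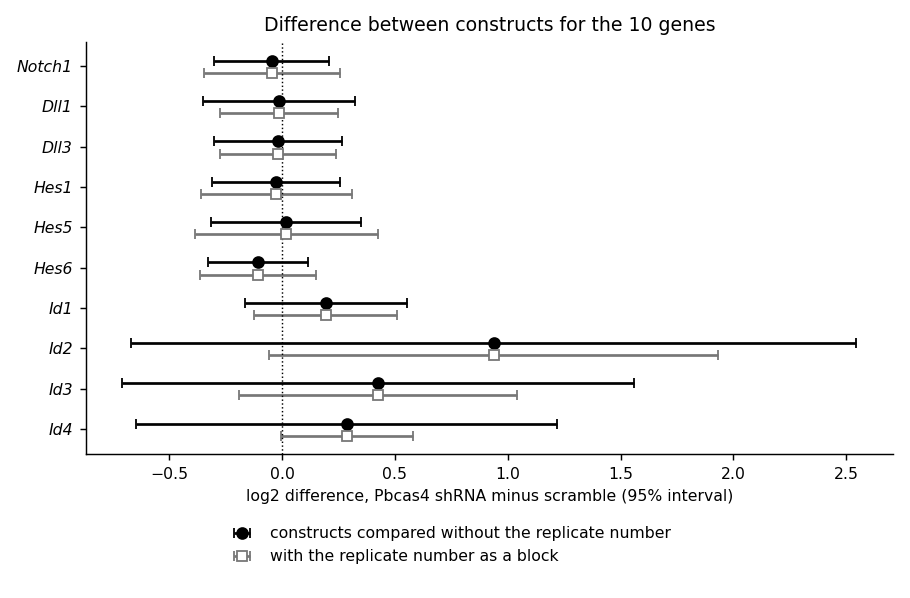
Log2 difference of each gene, Pbcas4 shRNA minus scramble, with its 95% interval from limma, without the replicate number (filled circles) and with it as a block (open squares). Every interval includes 0. Without the replicate number, those of Id2, Id3 and Id4 are the widest. These narrow with the number as a block, while those of Notch1, Hes1, Hes5 and Hes6 widen.

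Without scramble replicate 1, all shRNA arrays lay above both remaining scramble arrays for each of the 4 Id genes, as they then did for 20.3% of all genes. At an unadjusted p under 0.05, 1 of the 10 genes (Id2) was then higher, beside 11.4% of all genes, and limma again called 0 genes after adjustment. Without both arrays numbered 1, an alternative chosen after the data were seen, 4 of the 10 genes (the Id genes) lay entirely above, where 26.3% of all genes did, and 3 (Notch1, Hes1 and Hes6) lay entirely below, where 29.2% did. The differences of Id1, Id2, Id3 and Id4 were then 0.24, 1.18, 0.58 and 0.32, with adjusted p of 0.433, 0.300, 0.371 and 0.345.

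The spread of the Id genes ran beside that of the cell cycle. A list of 20 cell cycle genes, of which 19 were measured, averaged 12.43, 12.21 and 12.22 in shRNA replicates 1, 2 and 3, against 12.29, 11.44 and 10.96 in scramble replicates 1, 2 and 3. Scramble replicates 2 and 3 were the low arrays, and scramble replicate 1 lay within the range of the shRNA arrays. All 19 genes had a higher mean with the shRNA, with a median difference of 0.73 beside 0.003 over all genes, and 6 of them had an unadjusted p under 0.05, but limma called 0. Over the 6 arrays the list's mean correlated with Id2 at 0.920, Id1 at 0.871, Id3 at 0.866 and Id4 at 0.795, and with the Notch pathway genes at -0.58 to -0.15. The parallel was incomplete, for the list's mean differed by 0.21 at most among the shRNA arrays, over which Id2 differed by 1.45. Single genes of the list were unlike in this. Rrm2, with the largest difference of the list, had 12.57, 11.64 and 11.73 in shRNA replicates 1, 2 and 3. Plk1, chosen after its values were seen, had 12.62, 12.62 and 12.63. The sympathoadrenal markers had lower values with the shRNA on average: limma called 0 of 14, but 7 were lower at an unadjusted p under 0.05, beside 5.46% of all genes, and 6 lay entirely below, beside 7.63%. Dbh had the largest difference of these markers, -1.34 (limma adjusted p = 0.433), but its arrays overlapped. Chgb, a protein of secretory granules, had 12.55, 12.76 and 12.62 in the shRNA arrays, against 13.50, 13.79 and 13.69 in the scramble arrays (difference -1.01, adjusted p = 0.297). Th, the rate-limiting enzyme of catecholamine synthesis, had a difference of -1.08. In the other direction, 2 of the 14 had a higher mean with the shRNA. The part of the cell cycle genes and of these markers in the Id values was not tested. In cell cultures of this kind fewer cells of a type and less RNA per cell cannot be told apart.

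The promoters of Id2, Id3 and Id4 are printed here because these genes put the arrays in an identical order, and that of Hes5 as an RBPJ target with a window. They are RefSeq windows on GRCm38.p6, from 250 bases before the start site to 50 after it, and 8 of the 10 genes had at least 1 such window (10 windows, with 2 each for Dll1 and Hes6). Hes1, also an RBPJ target, and Id1 had no window and were not searched. Capitals mark matches on either strand to the RBPJ core TGGGAA (or TTCCCA), the CCAAT box (or ATTGG) bound by NF-Y, and GGCGCC, letters found in SMAD-bound elements of Id promoters. The Hes5 window is chr4:154960673-154960972 on the plus strand, the Id2 window chr12:25096043-25096342 on the minus strand, the Id3 window chr4:136143572-136143871 on the plus strand and the Id4 window chr13:48260866-48261165 on the plus strand.
Hes5: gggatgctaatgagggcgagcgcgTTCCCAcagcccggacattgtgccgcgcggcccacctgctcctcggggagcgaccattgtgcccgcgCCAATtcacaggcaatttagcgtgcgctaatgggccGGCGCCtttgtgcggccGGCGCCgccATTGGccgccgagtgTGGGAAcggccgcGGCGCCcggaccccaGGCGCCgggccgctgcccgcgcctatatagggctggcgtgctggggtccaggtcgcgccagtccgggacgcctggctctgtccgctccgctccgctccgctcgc
Id2: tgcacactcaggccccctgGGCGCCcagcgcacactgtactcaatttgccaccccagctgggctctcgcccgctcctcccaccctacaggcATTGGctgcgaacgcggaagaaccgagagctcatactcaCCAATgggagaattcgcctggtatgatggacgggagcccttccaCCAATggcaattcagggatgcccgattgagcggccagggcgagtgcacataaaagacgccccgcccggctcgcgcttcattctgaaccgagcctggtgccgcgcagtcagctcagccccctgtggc
Id3: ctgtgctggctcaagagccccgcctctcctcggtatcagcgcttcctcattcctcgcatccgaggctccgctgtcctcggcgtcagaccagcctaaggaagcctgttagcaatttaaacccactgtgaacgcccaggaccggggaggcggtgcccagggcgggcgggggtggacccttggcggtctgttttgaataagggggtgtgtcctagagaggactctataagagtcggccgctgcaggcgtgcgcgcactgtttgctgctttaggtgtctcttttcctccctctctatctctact
Id4: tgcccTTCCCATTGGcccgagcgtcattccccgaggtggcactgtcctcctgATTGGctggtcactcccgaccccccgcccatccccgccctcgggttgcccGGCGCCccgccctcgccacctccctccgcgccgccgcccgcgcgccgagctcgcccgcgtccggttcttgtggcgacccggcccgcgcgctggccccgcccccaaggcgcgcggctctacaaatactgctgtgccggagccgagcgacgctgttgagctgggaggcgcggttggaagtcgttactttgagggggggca
Hes5 held 2 matches to the RBPJ core, 226 and 82 bases before its start site and on opposite strands, and 4 to GGCGCC. Id2 held 3 CCAAT boxes, 159, 120 and 76 bases before its start, with 1 GGCGCC and no RBPJ core. In Id4 the RBPJ core and the first CCAAT box share a base, and a second CCAAT box and 1 GGCGCC follow. Id3 held none of the 3 and so has no capitals. The RBPJ core lay in 2 of the 10 windows of these genes and in 25.6% of all 32851 windows of this length, a CCAAT box in 6 of the 10 and in 37.4% of all, and GGCGCC in 4 of the 10 and in 11.9% of all. The N-box CACNAG (or CTNGTG), the letters that Hes repressors prefer, lay in 5 of the 10 and in 42.5% of all windows. These are matches of letters only. The windows of these genes held 52% to 73.3% G and C, beside a median of 52.7% over all windows. GGCGCC holds only G and C, and the part of base composition in its share was not tested.

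Hes5, the Notch target most restricted to neural precursors, had levels of 9.72, 9.33 and 9.63 in shRNA replicates 1, 2 and 3, against 9.38, 9.71 and 9.53 in scramble replicates 1, 2 and 3. Each construct had a low array, replicate 2 with the shRNA and replicate 1 with the scramble construct, and the remaining 4 lay within 0.19 of each other. The mean difference was 0.02 (SE 0.14, 95% interval -0.31 to 0.35, limma adjusted p = 0.991, exact permutation p = 0.9). Its sign depended on single arrays, with -0.06 without shRNA replicate 1 and 0.13 without shRNA replicate 2.

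Hes1, the more widely expressed Notch-induced repressor, had levels of 7.08, 6.85 and 6.91 in shRNA replicates 1, 2 and 3, against 6.80, 6.98 and 7.14 in scramble replicates 1, 2 and 3. All 6 values lay below the median of all probe means, 7.83, and the scramble arrays held both the lowest and the highest. The difference was -0.03 (SE 0.12, 95% interval -0.31 to 0.26, limma adjusted p = 0.979, exact permutation p = 0.8), and it was 0.02 without shRNA replicate 2 and 0.06 without scramble replicate 3.

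Hes6 is a Hes family member that opposes Hes1 and favours neuronal differentiation. Its level was 10.03, 9.86 and 9.85 in shRNA replicates 1, 2 and 3, against 10.01, 10.09 and 9.96 in scramble replicates 1, 2 and 3. The lowest values were shRNA replicates 2 and 3, while shRNA replicate 1 stood between the upper pair of scramble arrays. The mean was lower with the shRNA by 0.11 (SE 0.09, 95% interval -0.33 to 0.12, limma adjusted p = 0.801, exact permutation p = 0.3), which gave Hes6 the difference farthest from 0 among the 6 Notch pathway genes. It was also the steadiest of the 10, with an SD of 0.10 over the 6 arrays. Its sign was the same with any single array left out (-0.17 to -0.07), and without shRNA replicate 1 its shRNA arrays lay entirely below the scramble arrays, as 13.8% of all genes then did.

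Notch1, the receptor, had levels of 8.26, 7.97 and 8.15 in shRNA replicates 1, 2 and 3, against 8.07, 8.20 and 8.24 in scramble replicates 1, 2 and 3. The shRNA arrays enclosed the scramble arrays on both sides. The difference was -0.05 (SE 0.11, 95% interval -0.30 to 0.21, limma adjusted p = 0.954, exact permutation p = 0.7). It was 0.03 without shRNA replicate 2. Over the 6 arrays, within a total range of 0.29, r of Notch1 was 0.867 with Hes1 and 0.839 with Hes5. With 12 other Hes, Hey and target genes it was -0.68 (Nrarp) to 0.77 (Heyl), and below 0 for 8 of them. The genes most like Notch1 were C2cd4c, Sstr3, a somatostatin receptor, and Pabpc2, with r of 0.995 to 0.999, and 233 genes exceeded 0.95.

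Dll1, a ligand that activates Notch on neighbouring cells, had levels of 7.76, 8.22 and 8.09 in shRNA replicates 1, 2 and 3, against 7.89, 8.09 and 8.12 in scramble replicates 1, 2 and 3. Its low arrays were the 2 numbered 1, where the Id genes were highest, and its r with Id1, Id2, Id3 and Id4 was -0.74, -0.72, -0.81 and -0.89. The difference between constructs was -0.01 (SE 0.14, 95% interval -0.35 to 0.32, limma adjusted p = 0.994, exact permutation p = 0.9), and 0.12 without shRNA replicate 1. Dll3, a ligand family member that acts inside the cell rather than activating Notch on its neighbours, had levels of 7.28, 7.45 and 7.51 in shRNA replicates 1, 2 and 3, against 7.27, 7.60 and 7.42 in scramble replicates 1, 2 and 3. Its low arrays were also those numbered 1, and its r with Dll1 was 0.732. The difference was -0.02 (SE 0.12, 95% interval -0.30 to 0.27, limma adjusted p = 0.989, exact permutation p = 1), and 0.07 without scramble replicate 2.

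As a group, the 6 Notch pathway genes had a median difference of -0.02 and 1 of 6 was higher with the shRNA, and the 4 Id genes had a median of 0.36 and 4 of 4 were higher, where 10171 of all 19938 genes were higher and their median was 0.003. The mean of the 6 Notch genes was 8.36, 8.28 and 8.36 in shRNA replicates 1, 2 and 3, against 8.24, 8.44 and 8.40 in scramble replicates 1, 2 and 3. For the 4 Id genes it was 10.94, 9.97 and 10.27 in the shRNA arrays, against 10.72, 9.88 and 9.20 in the scramble arrays. Without scramble replicate 1 the Notch pathway genes all had a lower mean with the shRNA, with differences of -0.09 for Notch1, -0.08 for Dll1, -0.10 for Dll3, -0.11 for Hes1, -0.06 for Hes5 and -0.11 for Hes6 (limma adjusted p of 0.699 to 0.904), with a median of -0.10. Their median was between that value and 0.001 (without scramble replicate 3) with 1 array left out, and -0.15 without both arrays numbered 1. The share of all genes with a lower mean without scramble replicate 1 was not counted. Leaving out 1 array at a time moved the Id median between 0.05, without scramble replicate 3, and 0.76, without scramble replicate 1. It was 0.12 without shRNA replicate 1.

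Other genes of both pathways were read from 6 lists, which held 105 genes, of which 101 were measured. limma called 0 of the 101 (lowest adjusted p 0.348), and at an unadjusted p under 0.05, 9 were higher with the shRNA and 5 lower. The arrays of the constructs did not overlap for 7 of them upward and 6 downward, near the shares of all genes given above. The 8 other receptors and ligands had a median of -0.05, and none passed even the unadjusted threshold. Notch2, a second receptor, was 0.39 higher (9.83, 10.69 and 10.34 in shRNA replicates 1, 2 and 3, against 9.82, 9.82 and 10.06 in the scramble arrays, adjusted p = 0.622), the ligand Jag1 0.22 higher and the ligand Jag2 0.26 lower.

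Among 26 measured genes of receptor processing and trafficking, 2 had an unadjusted p under 0.05 in each direction, with a median of -0.005. Adam10, the protease that makes the first ligand-induced cut in Notch, had levels of 11.33, 11.67 and 11.46 in shRNA replicates 1, 2 and 3, against 10.99, 10.96 and 11.00 in the scramble arrays (difference 0.51, SE 0.11, unadjusted p = 0.00249, adjusted p = 0.348). Dtx3, a Deltex-family ubiquitin ligase, had 9.97, 10.14 and 10.14 in the shRNA arrays, against 10.50, 10.55 and 10.77 in the scramble arrays (difference -0.53, SE 0.11, unadjusted p = 0.00202, adjusted p = 0.348). Ncstn, nicastrin, a subunit of the gamma-secretase that makes the last cut, had a difference of -0.41. The arrays of the constructs did not overlap for any of these 3.

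Of 13 measured genes of the nuclear complex and corepressors, 1 was higher at an unadjusted p under 0.05 and the median was 0.04. Maml2, a Mastermind coactivator, differed by -0.30, the deacetylase Hdac1 by 0.27 and the Groucho-type corepressor Tle1 by 0.26, all with overlapping arrays. Of 12 measured other Hes, Hey and target genes, 1 was higher and 1 lower. The lower one was Hey2, a Hes-related repressor, with 8.39, 9.07 and 8.50 in the shRNA arrays, against 9.31, 9.58 and 9.00 in the scramble arrays (difference -0.64, SE 0.22, unadjusted p = 0.0237, adjusted p = 0.431). Its arrays overlapped, since shRNA replicate 2 exceeded scramble replicate 3. The higher one, chosen after its values were seen, was Nrarp, a Notch-induced feedback inhibitor, with 7.57, 8.03 and 7.75 in the shRNA arrays, against 7.43, 7.45 and 7.46 in the scramble arrays (difference 0.33, adjusted p = 0.469). Bhlhe40, a helix-loop-helix repressor, and Sox9, a factor of neural crest and glia, had differences of -0.57 and -0.41 with overlapping arrays.

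A further list joins the E protein genes Tcf3, Tcf4 and Tcf12 with proneural and lineage factors, which make up most of it. Several of these factors lay below the median of all probe means, 7.83, such as Neurod4 (5.26 in the scramble arrays) and Neurod6 (4.39). The list's median, -0.01 over 17 measured genes, therefore says little about the partners of Id proteins alone. In this list 1 gene was higher at an unadjusted p under 0.05. That gene was Tcf3, which encodes the E proteins that Id proteins hold, with 10.49, 10.39 and 10.39 in the shRNA arrays, against 10.31, 10.14 and 9.93 in the scramble arrays (difference 0.30, SE 0.12, unadjusted p = 0.0392, adjusted p = 0.472). Its shRNA arrays all lay above its scramble arrays. The other E protein genes, chosen after their values were seen, did not share this: Tcf4 had 12.54, 12.54 and 12.48 in the shRNA arrays, against 12.65, 12.59 and 12.63 in the scramble arrays, all below (difference -0.10, adjusted p = 0.744), and Tcf12 had a difference of 0.01. The proneural-type factors Olig2 and Neurod6 had differences of -0.20 and 0.15, with overlapping arrays.

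The list of BMP and SMAD genes holds ligands, receptors and SMADs that induce Id genes together with inhibitors of that signal and a few TGF-beta genes. Its median was -0.01 over 25 genes, with 4 higher and 2 lower at an unadjusted p under 0.05. The 2 lower ones, chosen after their values were seen, were Smad5, a SMAD that BMP receptors activate, with 10.39, 10.35 and 10.27 in the shRNA arrays, against 10.84, 10.64 and 10.79 in the scramble arrays (difference -0.42, unadjusted p = 0.00277, adjusted p = 0.354), and Tgfbr1, a TGF-beta receptor, with a difference of -0.49 (unadjusted p = 0.00208, adjusted p = 0.348). The arrays of the constructs did not overlap for either. Bambi, a decoy receptor that BMP signalling itself induces, had 10.92, 10.75 and 10.99 in the shRNA arrays, against 10.54, 9.79 and 9.79 in the scramble arrays (difference 0.85, SE 0.21, unadjusted p = 0.00602, adjusted p = 0.379), with no overlap. Smad7, an inhibitory SMAD, had 10.11, 9.60 and 9.81 in the shRNA arrays, against 9.66, 9.37 and 8.98 in the scramble arrays (difference 0.51, unadjusted p = 0.0450, adjusted p = 0.483), and its arrays stood in the same order as those of Id1. Smurf2, a ubiquitin ligase that works with inhibitory SMADs, had a difference of 0.50 with no overlap. The remaining higher gene, chosen after its values were seen, was the ligand Bmp5. It had 7.65, 7.36 and 7.58 in the shRNA arrays, against 7.21, 7.09 and 7.01 in the scramble arrays (difference 0.42, limma unadjusted p = 0.00711, adjusted p = 0.383). Its arrays did not overlap, but all lay below the median of all probe means, 7.83. Smad6, the BMP-specific inhibitory SMAD, was chosen after its values were seen. With 10.10, 9.29 and 9.34 in the shRNA arrays, against 9.58, 9.31 and 9.16 in the scramble arrays, it too was highest in the array numbered 1 of each construct, as Id2, Id3 and Id4 were. Bambi did not share this, for its highest array was shRNA replicate 3. Over all probes the arrays numbered 1 deviated together from their construct's mean (r = 0.291). The shares of all genes with the order of Id1, or highest in both arrays numbered 1, were not counted. Rrm2, Mcm4 and Tyms, the 3 cell cycle genes with the largest differences, put the arrays in the order of Id2, Id3 and Id4 as well. Other cell cycle genes did not, such as Cdk1, which was highest in scramble replicate 1. High values in both arrays numbered 1 were thus not particular to BMP targets, and a link with BMP signalling was not tested.

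**Figure D4:**
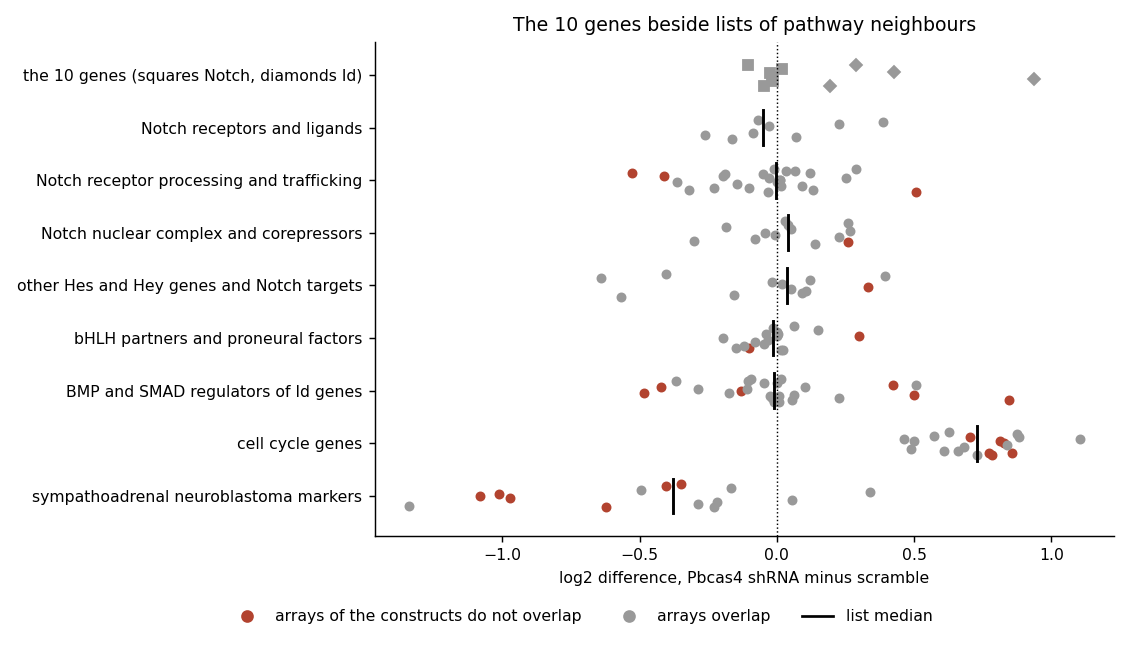
Log2 difference of single genes, Pbcas4 shRNA minus scramble, for the 10 genes (top row, squares for Notch pathway genes and diamonds for Id genes) and for the genes of 8 lists, with list medians as black bars and genes whose arrays do not overlap in red. The 6 pathway lists centre near 0 (medians -0.05 to 0.04), the cell cycle list lies at 0.46 to 1.11, and the median of the sympathoadrenal markers is -0.38.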

How the data were processed

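RNA from 6 arrays was analysed, 3 for each construct. The deposited log2 values had been summarized per probe and normalized between arrays by the authors, by a method not given in the sources used here, which name limma for testing. No further normalization was applied. The table held 35556 probes, 21789 with 1 symbol; a gene with several probes was read from the brightest. The construct was the only term of the limma fit (version 3.58.1, R 4.3.3), whose moderated two-sided p-values were adjusted by Benjamini-Hochberg over every probe. The methods' variance over 0.5 between conditions was read as a log2 difference over 0.5. Exact two-sided permutation tests of single genes cannot go below p = 0.1 with 3 arrays against 3. The fit was tested on simulated data.

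The design names 3 biological replicates per construct, so p-values measure the spread between these, and precision is limited by how few arrays there were. Replicate numbers are unexplained in the labels. Same-numbered arrays deviated together from their construct's mean, with r over probes of 0.291, 0.137 and 0.103 at numbers 1, 2 and 3. Arrays of unlike number had r of -0.255 to 0.199, the highest for shRNA replicate 2 with scramble replicate 3. Only number 1 thus stood clear of the unlike pairs, and the number was fitted as a block as an alternative.

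Members and lists were chosen with earlier results of these data known. Of 179 list symbols, 171 were measured. Genes named from a list are the 3 with the largest difference in size, and genes named by likeness the 3 with the highest r, unless stated otherwise. Alternatives were the block, array weights, a robust trended variance, quantile normalization, median centring, averaging all probes of a gene, dropping dim probes and leaving out arrays. Promoter windows came from RefSeq (GRCm38.p6). Figures were drawn with matplotlib 3.10.9.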

Additional observations from a re-analysis of the deposited data

How the results depend on the processing

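None of the 10 genes was called under any alternative, and Id1, Id2, Id3 and Hes6 kept the sign of their difference in all 14. Differences near 0 changed sign: Dll1 was 0.0074 after quantile normalization and 0.013 after centring, Dll3 0.0089 and Hes1 0.00053 after centring, Hes5 -0.027 with array weights, and without both arrays numbered 1 Dll1 was 0.046 and Hes5 -0.14. Leaving out 1 array at a time gave -0.11 to 0.033 for Notch1, -0.11 to 0.12 for Dll1, -0.10 to 0.069 for Dll3, -0.11 to 0.056 for Hes1, -0.064 to 0.13 for Hes5 and -0.038 to 0.64 for Id4. It also gave 0 to 1 genes higher at an unadjusted p under 0.05 (Id2, without scramble replicate 1, beside 11.4% of all genes). Of the 10 genes, 0 to 4 had separate arrays (the Id genes, all above without scramble replicate 1, beside 20.3% of all genes). Without both arrays numbered 1, 7 of the 10 were separate, 4 above (26.3% of all genes) and 3 below (29.2% of all genes). With array weights, whose estimate did not converge and which put 5.32 on shRNA replicate 3, 2 of the 10 genes were higher (Id1 and Id2) and 1 lower (Hes6) at an unadjusted p under 0.05, beside 17.5% and 15.1% of all genes, and 0 of the 10 but 6.62% of all genes were called. The replicate block changed no call (Id2 adjusted p 0.418, against 0.728 without it). Over all alternatives the adjusted p was 0.155 to 0.999 for Id2 and 0.0945 to 0.999 for Id1. The filter on dim probes left out Dll3 and Hes1. With 3 arrays per construct, the intervals of Id2, Id3 and Id4 include differences of over 1 in size.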
